A study of Homo sapiens with 9 samples.

Results

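TGIF1, TGIF2, SMAD2, SMAD3, SMAD4, SKI and SKIL encode transcription factors and repressors that act together on TGF-β responses, and their RNA levels were followed here by gene and by replicate. The 7 genes were taken by name, from probes paired with a single gene symbol, and gave 12 of the 19460 such probes in the table, which represent 18417 genes. TGIF1 has 5 probes, SMAD2 has 2 and the other genes have 1 each. Of several probes, the one with the highest mean signal was taken for the gene and the others are given beside it.

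The cells of all groups were labelled as MDA-MB-231, a triple negative line from a human breast cancer, with no genetic change made. They were untreated (UT), treated with 2.5μM SID peptide, or treated with the scrambled control peptide (SCR), for which the methods give the same dose, and the labels give 24 hours for each. SID is a decoy that joins a TAT cell-entry sequence to the SIN3 interaction domain of the repressor MXD1 (MAD1), and the study asked what happens when it occupies the PAH2 domain of SIN3A, which TGIF1 also binds. Each group had 3 samples on 1 Affymetrix Human Gene 1.0 ST array each, 9 arrays in all. The series describes the 3 as independent replicates, whereas the paper's methods mention only 2 biological replicates. Levels are log2 signals normalized between arrays by the authors, so a difference of 1 is a doubling.

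TGF-β binds its receptors at the cell surface, which phosphorylate SMAD2 and SMAD3. These join SMAD4 and enter the nucleus, where the complex turns target genes on or off with partner factors. TGIF1 and TGIF2, homeobox proteins of the TALE class, and SKI and SKIL bind the SMAD complex and bring in corepressors, among them SIN3A and histone deacetylases. In breast cancer cells the pathway is known both for growth arrest and for invasion.

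The arrays did not form 3 groups. One set of 4 arrays holds replicates 1 and 2 of both peptides, and the other set of 5 holds the 3 UT arrays and replicate 3 of both peptides. Across probes, arrays correlated with r from 0.963 to 0.995 within the 4, from 0.992 to 0.997 within the 5, and from 0.908 to 0.929 between the sets. A supplementary file of the study heads replicate 3 of SCR as 72 hours and gives the replicate 3 arrays another prefix, while the labels give 24 hours. MDA-MB-231 is known to have lost CDKN2A and MTAP, neighbours on the short arm of chromosome 9, and to keep SMAD4. On the 5 arrays CDKN2A, a cell cycle inhibitor, lay between 10.96 and 11.21 and MTAP, a methionine salvage enzyme, between 9.31 and 9.52, and SMAD4 lay between 5.69 and 6.11. On the 4 arrays SMAD4 was at 10.60 and 10.61 (SCR) and 11.18 and 11.14 (SID). There CDKN2A was at 9.91 and 10.03 in SCR and at 7.85 and 7.58 in SID, and MTAP was at 8.19 and 8.35 in SCR and at 6.43 and 6.36 in SID. The 5 arrays thus go against the label for these 3 genes. SCR replicates 1 and 2, which lie between the 5 arrays and SID replicates 1 and 2 for CDKN2A and MTAP, also go against it for this pair. These genes were picked after their values were seen, and the cause was not tested. The 4 markers listed for mesenchymal-like cells (VIM, CD44, AXL, MSN) averaged 11.57 to 11.62 on the 5 arrays and 13.14 to 13.25 on the 4. Most of this came from 2 of them. SCR and SID replicates 1 and 2 lay above the mean of the 5 by 2.50 and 2.44 for CD44 and by 3.05 and 3.27 for AXL. For MSN it was 0.41 and 0.35, and VIM was at 12.75 to 13.01 on the 5 arrays and at 13.19 to 13.34 on the 4. The 8 luminal and receptor markers (ESR1, PGR, ERBB2, EPCAM, KRT8, KRT18, GATA3, FOXA1) averaged 9.11 to 9.18 on the 5 arrays. On the 4 arrays they averaged 9.75 and 10.02 for SCR, against 9.26 and 9.30 for SID. This average joins opposite differences. Relative to the mean of the 5 arrays, SCR and SID replicates 1 and 2 differed by 4.37 and 3.46 for EPCAM and by 2.41 and 1.38 for GATA3, but by -0.59 and -1.64 for FOXA1, -0.39 and -0.96 for KRT8 and -0.23 and -1.18 for KRT18. The 7 genes are therefore given over all arrays, in replicates 1 and 2 and in replicate 3, and the lists mainly in replicates 1 and 2.

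Over all 9 arrays none of the 7 genes was called between SID and SCR by limma, where a call needs an adjusted p below 0.05 together with a change of more than 1 log2 either way. No probe of the table did (0% of 19460, lowest adjusted p 0.657), although 1474 probes, or 7.57%, had an unadjusted p under 0.05. TGIF1 alone among the 7 genes was one of these. In replicates 1 and 2, limma with a mean of its own for each set of arrays called 1 of the 7 genes, TGIF1, against 5.26% of all probes (379 higher and 645 lower). By the adjusted p alone 4 of the 7 differed, against 24.9% of all probes. These were TGIF1, SMAD2 and SMAD4 (higher in SID) and TGIF2 (lower in SID). With the replicate number as a block in these 4 arrays TGIF2 and SMAD2 no longer passed, which left 2 of the 7 against 17.9% of all probes. In replicate 3, limma called 0 of the 7 and 0% of all probes, and 520 probes (2.67%) had an unadjusted p under 0.05, none of them for these genes. With 1 array of each peptide there, that fit assumes that replicate 3 varies as the other arrays do. The difference of these differences, replicates 1 and 2 minus replicate 3, was called for TGIF1 and for 4.87% of all probes.

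**Figure D1:**
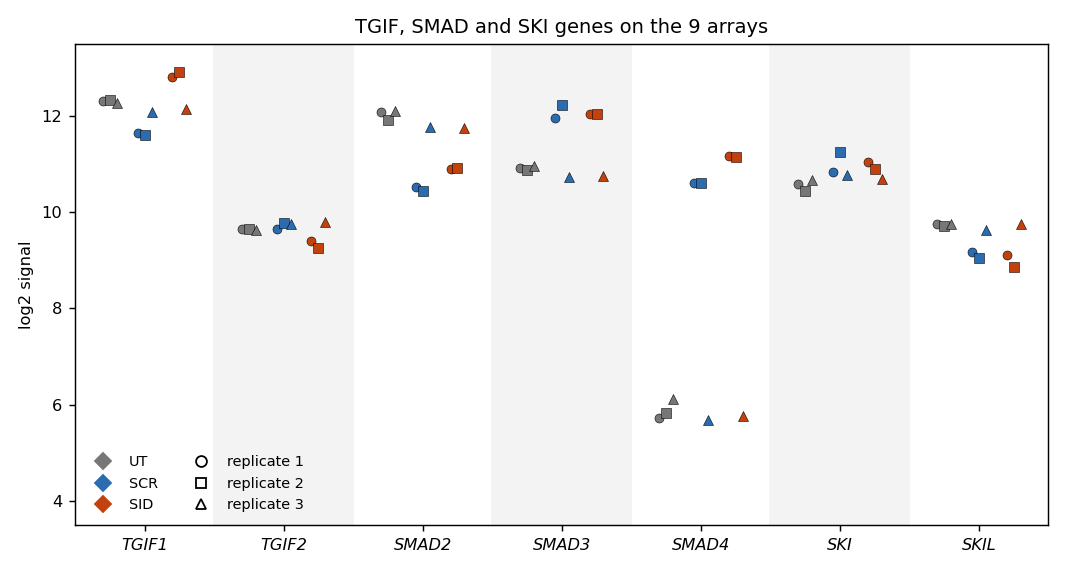
Log2 signal (vertical axis) of the 7 genes (horizontal axis) on the 9 arrays, 1 point per array, coloured by group and shaped by replicate number. SMAD4 lies between 5.69 and 6.11 on the UT and replicate 3 arrays and between 10.60 and 11.18 on the other 4, and TGIF1 is highest in SID replicates 1 and 2.

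TGIF1 represses TGF-β and retinoid responses and binds the PAH2 domain of SIN3A, which the decoy occupies. Its promoter windows in RefSeq (build GRCh38.p14, the 250 bases before each annotated start) were searched for motifs because TGIF1 was the gene called. Of 7 TGIF1 windows, 4 hold the TGIF site TGTCA or its reverse complement TGACA, and 4 hold the SMAD box CAGAC or its reverse complement GTCTG. Of all 35116 windows of this length, 34% hold the first motif and 38% the second on either strand, and the 2 motifs can share bases. A pair of the TGIF1 windows overlaps by 111 bases and shares a SMAD box, so the windows are not separate samples of the promoter and their counts are not read against these shares. The window with the most matches, chr18:3449318-3449567 (plus strand), holds 3 TGIF sites and 2 SMAD boxes. It is printed, picked for its matches, beside a TGIF2 window, chr20:36573214-36573463 (plus strand), which holds neither motif. The other TGIF2 window and the TGIF1 window chr18:3451343-3451592 hold neither motif as well. SMAD3, which did not pass between the peptides, has a window with 2 TGIF sites and another with 3 SMAD boxes. Capitals mark the motif letters, and a match describes the letters only.
TGIF1: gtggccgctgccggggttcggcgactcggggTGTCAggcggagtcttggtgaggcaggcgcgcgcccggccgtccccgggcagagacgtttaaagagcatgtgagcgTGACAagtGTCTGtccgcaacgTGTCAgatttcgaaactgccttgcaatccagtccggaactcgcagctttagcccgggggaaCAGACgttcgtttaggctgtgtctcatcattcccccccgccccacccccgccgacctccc
TGIF2: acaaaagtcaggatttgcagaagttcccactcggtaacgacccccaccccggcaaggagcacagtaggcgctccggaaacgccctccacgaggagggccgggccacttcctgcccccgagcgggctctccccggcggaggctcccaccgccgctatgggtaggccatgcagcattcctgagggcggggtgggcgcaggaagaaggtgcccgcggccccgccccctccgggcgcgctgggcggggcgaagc

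On the probe that stands for it, TGIF1 was at 12.31, 12.33 and 12.28 in UT, at 11.65, 11.61 and 12.09 in SCR, and at 12.81, 12.91 and 12.14 in SID. SID replicates 1 and 2 were the highest of the 9 arrays and SCR replicates 1 and 2 the lowest, with the other 5 arrays between them. SID exceeded SCR by 1.16, 1.30 and 0.05 in replicates 1, 2 and 3. Over all arrays the difference was 0.84 ± 0.22 (SE, 3 arrays a group, limma adjusted p = 0.657). In replicates 1 and 2 TGIF1 rose by 1.23 ± 0.08 (SE, 95% interval 1.04 to 1.42, limma adjusted p = 0.000180), which is 2.35-fold. In replicate 3 the interval ran from -0.22 to 0.32 (limma adjusted p = 1). The difference between the sets was 1.18 ± 0.14 (SE, limma adjusted p = 0.00757). Relative to the mean of the 5 other arrays, SID replicates 1 and 2 differed by 0.63 and SCR replicates 1 and 2 by -0.60, a description with no test.

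Other genes moved beside TGIF1 on the same 4 arrays. On these arrays SID minus SCR was -2.26 ± 0.13 for CDKN2A and -1.88 ± 0.10 for MTAP (SE, limma adjusted p = 0.000112 for each). Of the 8 luminal and receptor markers, 5 were lower by the adjusted p, against 24.9% of all probes in either direction. GATA3 and FOXA1 were past the fold limit as well, against 5.26% of all probes. Of 7 markers analysed of leukocytes, endothelial cells and adipocytes, PECAM1 (-1.15) and CDH5 (-2.67) were called lower, against 5.26% of all probes called. The list averaged 6.57 and 6.60 in SCR and 6.05 and 6.08 in SID, against 6.24 to 6.37 on the 5 arrays. This came mostly from PECAM1 and CDH5, and the list median was -0.03. PTPRC, CD3E, ADIPOQ and FABP4 differed by 0.10, -0.05, 0.02 and -0.03. Relative to the mean of the 5 arrays, SID replicates 1 and 2 differed by 0.74 for PECAM1 and -2.52 for CDH5. The 4 mesenchymal markers averaged 13.19 and 13.20 in SID, within the range of SCR, and 0 of 4 passed. The part of any of these in the TGIF1 difference was not tested. In a bulk sample, a gene that is higher in every cell and a change in the cells present cannot be told apart.

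The TGIF1 probes moved alike. The 4 probes that each carry 1 transcript accession differed between SID and SCR in replicates 1 and 2 by 1.23 to 1.25 (highest limma adjusted p 0.000180), and all 4 were called. The fifth, probe 8019939, carries 7 accessions. It was at 8.85, 8.81 and 8.80 in UT, at 8.17, 8.21 and 8.80 in SCR, and at 8.96, 9.14 and 8.68 in SID. Its difference in replicates 1 and 2 was 0.86 ± 0.09 (SE, limma adjusted p = 0.000816), under the fold limit. In all 5 probes both SID arrays were above both SCR arrays in replicates 1 and 2, which held for 32.6% of all probes. The probes report 1 gene on the same arrays and are not replicates of the treatment.

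**Figure D2:**
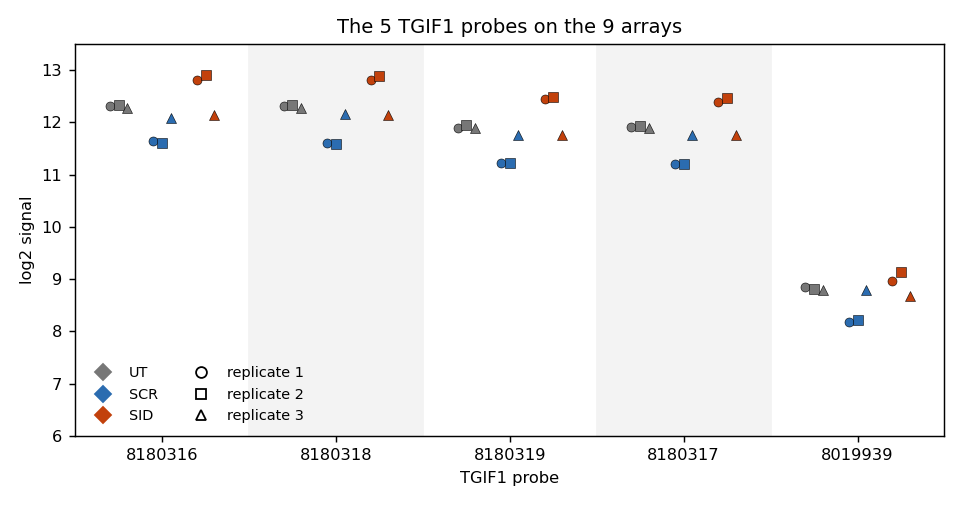
Log2 signal (vertical axis) of the 5 TGIF1 probes (horizontal axis, probe numbers) on the 9 arrays, 1 point per array, coloured by group and shaped by replicate number. In every probe SID replicates 1 and 2 lie above SCR replicates 1 and 2, and replicate 3 of SID and SCR differ by at most 0.11.

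The genes whose profile over the 9 arrays was nearest to TGIF1 were HINT3, SLC19A2 and BET1, each profile centred on its own mean. The root mean square difference from TGIF1 was 0.079, 0.086 and 0.097 log2, against a median of 0.444 over all genes. All 3 were at their highest in SID replicates 1 and 2 and at their lowest in SCR replicates 1 and 2. They were picked for likeness on these same arrays, so this order follows from the choice.

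TGIF2, the paralog of TGIF1 and also a SMAD corepressor, was not higher with it in SID. It was at 9.65, 9.65 and 9.63 in UT, at 9.65, 9.77 and 9.76 in SCR, and at 9.40, 9.25 and 9.79 in SID. SID replicates 1 and 2 were the lowest of the 9 arrays, and SID replicate 3 was the highest. Both SID arrays lay under both SCR arrays in replicates 1 and 2 for 26.3% of all probes. SID minus SCR was -0.25, -0.52 and 0.03 in replicates 1, 2 and 3. The difference was -0.25 ± 0.13 over all arrays (SE, limma adjusted p = 0.689) and -0.39 ± 0.09 in replicates 1 and 2 (95% interval -0.60 to -0.18, limma adjusted p = 0.0185), within the fold limit. With the replicate number as a block in replicates 1 and 2 the adjusted p by limma was 0.106. The difference between the sets was -0.42 ± 0.16 (SE) and did not pass (limma adjusted p = 0.158).

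SMAD2 and SMAD3, the receptor-activated SMADs of the TGF-β branch, lay apart between the sets of arrays in opposite directions. SMAD2 was at 12.08, 11.92 and 12.11 in UT, at 10.52, 10.44 and 11.77 in SCR, and at 10.90, 10.91 and 11.76 in SID. The 4 arrays of replicates 1 and 2 lay below the other 5 without overlap, with a mean difference of -1.45 in SCR and -1.02 in SID. SID minus SCR was 0.38, 0.47 and -0.02 in replicates 1, 2 and 3. Over all arrays it was 0.28 ± 0.38 (SE, limma adjusted p = 0.917), and in replicates 1 and 2 it was 0.43 ± 0.09 (SE, 95% interval 0.21 to 0.64, limma adjusted p = 0.0142), under the fold limit. With the replicate number as a block the adjusted p by limma was 0.0641.

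The second SMAD2 probe, 8023191, was at 11.19, 10.79 and 11.17 in UT, at 8.75, 9.02 and 10.35 in SCR, and at 9.86, 8.88 and 10.31 in SID. It shared the gap between the sets of arrays. Its SID minus SCR differences in replicates 1 and 2 were 1.11 and -0.14, of opposite sign, with a mean of 0.49 ± 0.29 (SE) that did not pass (limma adjusted p = 0.30). The mean had the sign of that of the first probe, with a larger standard error. GLCE, SCARNA17 and PABIR3 had the profiles nearest to SMAD2 over the 9 arrays, at root mean square differences of 0.051, 0.091 and 0.098 log2, against a median of 0.651 over all genes.

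SMAD3 was at 10.93, 10.89 and 10.97 in UT, at 11.95, 12.24 and 10.74 in SCR, and at 12.05, 12.05 and 10.76 in SID. The 4 arrays of replicates 1 and 2 lay above the other 5, by 1.24 in SCR and 1.19 in SID, and SCR and SID overlapped in replicates 1 and 2. SID minus SCR was 0.10, -0.18 and 0.02 in replicates 1, 2 and 3, and over all arrays -0.02 ± 0.46 (SE, limma adjusted p = 1.00). The 95% interval of the mean of replicates 1 and 2 ran from -0.29 to 0.21 (limma adjusted p = 0.826), so a change of 1 log2 in either direction lies outside it. RGMB, a co-receptor of BMP ligands, TGM2, a transglutaminase, and CYRIA were nearest to SMAD3, at 0.069, 0.112 and 0.118 log2 against a median of 0.633.

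SMAD4, the SMAD shared by the TGF-β and BMP branches, had the widest range of the 7 genes. It was at 5.71, 5.84 and 6.11 in UT, at 10.60, 10.61 and 5.69 in SCR, and at 11.18, 11.14 and 5.76 in SID. SCR replicates 1 and 2 lay 4.78 above the mean of the other 5 arrays and SID replicates 1 and 2 lay 5.34 above it, which are 27.5-fold and 40.5-fold on the measured scale. The values come with no detection calls, so how much of the low signal is background is unknown. A mean difference over 4 between the 4 and the 5 arrays was seen for 0.642% of all probes. Against UT, the SMAD4 difference over 3 arrays a group was 3.47 ± 1.78 in SID and 3.08 ± 1.78 in SCR (SE, limma adjusted p = 0.394 and 0.417), and replicate 3 of each peptide was within 0.20 of the UT mean.

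Between SID and SCR, SMAD4 differed by 0.58, 0.54 and 0.07 in replicates 1, 2 and 3, and by 0.40 ± 1.78 over all arrays (SE, limma adjusted p = 0.993). In replicates 1 and 2 the mean was 0.56 ± 0.13 (SE, 95% interval 0.26 to 0.86, limma adjusted p = 0.0176), under the fold limit, and with the replicate number as a block the adjusted p by limma was 0.0306. Over 16 alternative analyses this mean ran from 0.54 to 0.59, and its adjusted p did not stay below 0.05 in all of them. The difference between the sets, 0.48 ± 0.22 (SE), did not pass (limma adjusted p = 0.246). The nearest profiles were those of ENPP1, ADGRF5 and CDCP1, at 0.152, 0.185 and 0.192 log2 against a median of 2.53 over all genes.

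Genes beside SMAD4 on chromosome 18 shared the gap in part. ME2, a mitochondrial malic enzyme, was at 5.46, 5.55 and 5.24 in UT, at 10.85, 10.50 and 5.36 in SCR, and at 10.81, 11.11 and 5.29 in SID. MEX3C, an RNA-binding ubiquitin ligase, was between 6.89 and 7.17 on the 5 arrays and between 9.41 and 10.23 on the 4. ELAC1, a tRNA-processing enzyme that lies between ME2 and SMAD4, was between 5.50 and 6.05 on all 9 arrays, at percentiles 8.6 to 15.1 of the tested probes. The neighbours MRO (6.15 to 6.31), DCC (5.49 to 5.72) and STARD6 (4.69 to 4.82) were also low on all 9. With no detection calls, probes this low cannot show whether the gap reaches their genes. Among neighbours with more signal, SKA1 was at 8.56 to 9.05 on the 5 arrays, MBD2 at 10.10 to 10.33 and POLI at 8.41 to 8.71. For SKA1, MBD2 and POLI the mean of the 4 arrays lay above that of the 5 by 0.68, 0.24 and 0.39. Of 10 measured neighbours, 5 on each side, ME2 and MEX3C alone differed by over 1 between the 4 and the 5 arrays, against 10.8% of all probes. SMAD2 had 0 such neighbours of 10 on the same chromosome, as did TGIF2 and SKI on theirs. TGIF1, also on chromosome 18, had ARHGAP28 and LAMA1, SMAD3 had SNAPC5 and ZWILCH, and SKIL had CLDN11 and EIF5A2, none of them with a gap over 4. The neighbours were counted after the SMAD4 values were seen, and their order is that of the RefSeq annotation. The SMAD4 window, chr18:51029963-51030212 (plus strand, GRCh38.p14), is shown as the start of the gene with the gap, and holds neither of the motifs above, so no letter is in capitals.
SMAD4: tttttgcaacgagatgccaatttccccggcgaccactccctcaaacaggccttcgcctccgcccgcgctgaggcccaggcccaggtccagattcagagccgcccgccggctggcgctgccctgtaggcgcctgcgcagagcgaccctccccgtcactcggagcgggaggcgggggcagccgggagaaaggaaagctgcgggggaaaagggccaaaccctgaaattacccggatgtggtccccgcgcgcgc

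**Figure D3:**
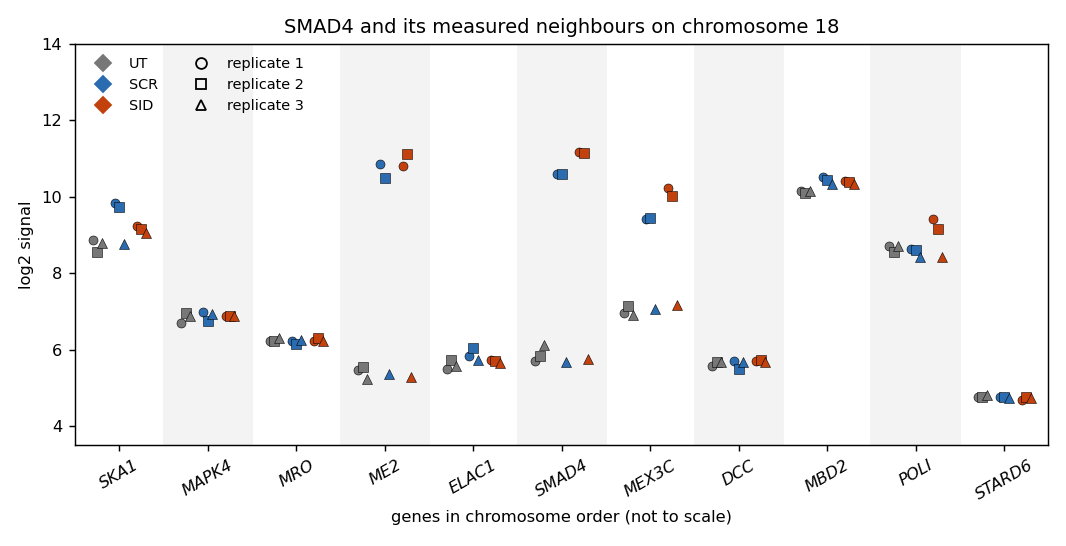
Log2 signal (vertical axis) of SMAD4 and its 5 measured neighbours on each side in chromosome order (horizontal axis, not to scale) on the 9 arrays, coloured by group and shaped by replicate number. SMAD4, ME2 and MEX3C are higher in replicates 1 and 2 of SCR and SID than on the other 5 arrays, and ELAC1 is low on all arrays, between 5.50 and 6.05.

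SKI and SKIL, related proteins that hold SMAD complexes in a repressed state, did not pass the test between the peptides in any set. SKI was at 10.60, 10.44 and 10.66 in UT, at 10.85, 11.25 and 10.79 in SCR, and at 11.04, 10.90 and 10.68 in SID. SID minus SCR was 0.19, -0.35 and -0.10 in replicates 1, 2 and 3 and -0.09 ± 0.15 over all arrays (SE, limma adjusted p = 0.940), with a 95% interval of -0.42 to 0.26 for the mean of replicates 1 and 2 (limma adjusted p = 0.761). SKIL, itself a target of SMAD complexes, was at 9.76, 9.71 and 9.77 in UT, at 9.18, 9.04 and 9.64 in SCR, and at 9.11, 8.86 and 9.77 in SID. The 4 arrays of replicates 1 and 2 lay below the other 5, with a mean difference of -0.62 in SCR and -0.74 in SID. SID minus SCR was -0.07, -0.18 and 0.13 in these replicates and -0.04 ± 0.24 over all arrays (SE, limma adjusted p = 0.999), with an interval of -0.38 to 0.12 for the mean of replicates 1 and 2 (limma adjusted p = 0.477).

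**Figure D4:**
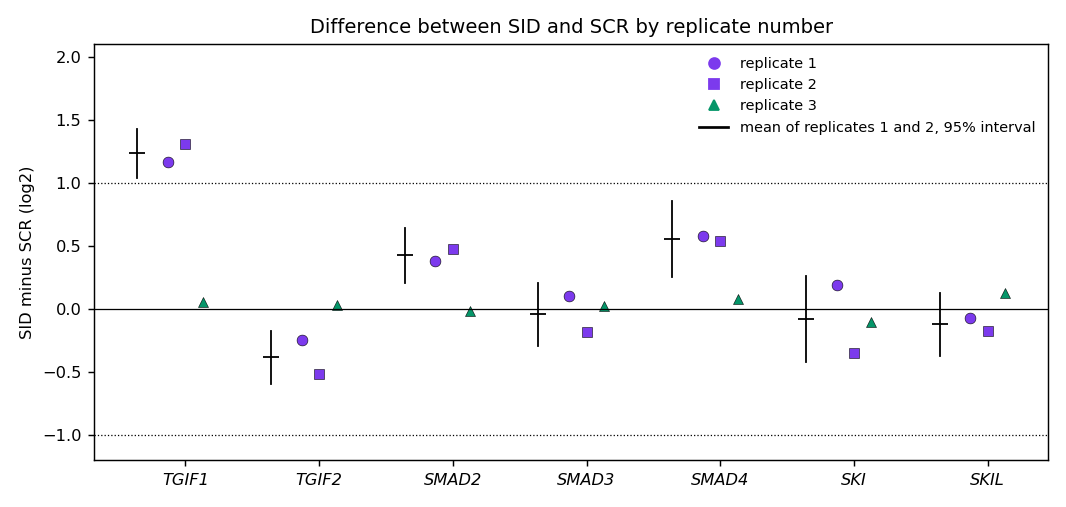
SID minus SCR in log2 (vertical axis) for the 7 genes (horizontal axis), 1 point per replicate number, with the mean of replicates 1 and 2 and its 95% interval from limma to the left and dotted lines at the fold limit of 1 and -1. The interval of TGIF1, 1.04 to 1.42, alone lies past the limit, and replicate 3 is between -0.10 and 0.13 for every gene.

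The 5 SMAD and SKI genes had the 4 arrays of replicates 1 and 2 wholly above the other 5 (SMAD3, SMAD4, SKI) or wholly below them (SMAD2, SKIL). Such a split was seen for 32% of all probes. TGIF1 and TGIF2 had none. Against UT, limma called 0 of the 7 genes and 0% of probes for either peptide, while 12.5% of probes for SID and 14.4% for SCR had an unadjusted p under 0.05. These means pool both sets of arrays. Replicate 3, which shares the set of the UT arrays, differed from the UT mean by -0.28 to 0.15 in SID and by -0.26 to 0.22 in SCR over the 7 genes, and limma called 0 of them there, against 0.0103% and 0% of probes.

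The rest of the SMAD pathway was followed through lists of genes, and over all arrays limma called 0 genes of any list between SID and SCR. In replicates 1 and 2 the background was 5.26% called and 24.9% by the adjusted p alone, with a median difference of 0.04 over all probes, and in replicate 3 no list gene was called. Of the 5 other SMADs, 1 was called higher and 2 were lower by the adjusted p, with a median of -0.27. The inhibitory SMAD7 was at 7.17, 7.28 and 7.10 in UT, at 7.17, 7.48 and 6.88 in SCR, and at 8.03, 8.92 and 7.26 in SID. SID was above SCR in all 3 replicates, by 0.86, 1.43 and 0.39, and in replicates 1 and 2 SMAD7 rose by 1.15 ± 0.26 (SE, limma adjusted p = 0.0154). SMAD6, the other inhibitory SMAD, went the other way, at -0.41 ± 0.09 in replicates 1 and 2 (SE, limma adjusted p = 0.0119, under the fold limit). Of the SMADs of the BMP branch, SMAD1 differed by -0.67 ± 0.19 (SE, limma adjusted p = 0.0398) and SMAD5 did not pass (-0.27 ± 0.09, limma adjusted p = 0.0543).

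Of 11 ligands and receptors, 0 were called in replicates 1 and 2, while 3 were higher and 2 lower by the adjusted p, with a median of 0.15. The ligand TGFB2 was at 12.45 and 12.25 in SCR and at 13.19 and 13.20 in SID, and its difference of 0.84 ± 0.11 passed the p alone (SE, limma adjusted p = 0.00167). TGFBR2, a receptor of the pathway, was at 11.80 and 11.91 in SCR and at 11.07 and 10.67 in SID, a difference of -0.99 ± 0.13 (SE, limma adjusted p = 0.00200). The ligand and this receptor thus moved in opposite directions. In replicate 3 they differed by -0.27 and 0.05, and the difference between the sets was called for both by limma (adjusted p = 0.0175 for TGFB2 and 0.0380 for TGFBR2). TGFB1 and TGFBR1 differed by 0.46 ± 0.21 and 0.56 ± 0.18 (SE) and did not pass (limma adjusted p = 0.158 and 0.0633). The receptor TGFBR3 differed in the direction of TGFB2, by 0.48 ± 0.10 in replicates 1 and 2 (SE, limma adjusted p = 0.0102).

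Of 18 regulators of SMAD activity and stability, 0 were called in replicates 1 and 2, and 5 were higher and 4 lower by the adjusted p, with a median of 0.08. RNF111, a ubiquitin ligase that removes SKIL and inhibitory SMADs, differed by -0.51 ± 0.12 (SE, limma adjusted p = 0.0196). The ligases SMURF1, SMURF2 and TRIM33 and the SMAD anchor ZFYVE9 did not pass, with differences of 0.14, -0.17, -0.16 and 0.26. SMURF2 shared a gap between the sets of arrays, at 9.47 to 9.88 on the 5 arrays and 12.80, 12.87, 12.83 and 12.51 on the 4.

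Of 18 corepressor partners 15 were analysed here, and 0 were called in replicates 1 and 2, with a median of 0.00. By the adjusted p alone 1 was higher and 1 lower. HDAC1, a deacetylase of the SIN3 complex, was at 12.31 and 12.30 in SCR and at 11.44 and 11.18 in SID, a difference of -0.99 ± 0.12 (SE, limma adjusted p = 0.00127). MXD1, the repressor whose domain the decoy copies, was at 9.63 and 9.40 in SCR and at 9.93 and 10.60 in SID, 0.75 ± 0.20 higher (SE, limma adjusted p = 0.0330). SIN3A, the target of the decoy, was at 11.11, 11.05 and 11.24 in UT, at 10.59, 10.74 and 11.20 in SCR, and at 10.53, 10.32 and 11.26 in SID, and did not pass in replicates 1 and 2 (-0.24 ± 0.11, limma adjusted p = 0.182). CTBP1, a corepressor that TGIF1 also binds, differed by -0.07 and did not pass.

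Of 19 transcription partners of SMADs, 2 were called in replicates 1 and 2, both higher and named here after their values were seen, with a median of 0.10. By the adjusted p alone 2 were higher and 3 lower. RUNX2, a factor of bone formation, was at 9.98 and 10.18 in SCR and at 11.53 and 11.82 in SID, and rose by 1.60 ± 0.13 (SE, limma adjusted p = 0.000345). ATF3, a stress-induced factor, was at 7.09 and 6.98 in SCR and at 7.85 and 8.38 in SID. SID exceeded SCR by 1.08 ± 0.18 (SE, limma adjusted p = 0.00481). On the 5 arrays ATF3 was at 8.02 to 8.74. Relative to their mean, SCR replicates 1 and 2 differed by -1.29 and SID replicates 1 and 2 by -0.21. For RUNX2 these differences were 2.22 and 3.82. The acetyltransferase EP300 differed by -0.71 ± 0.19 (SE, limma adjusted p = 0.0332), and FOXH1 and RUNX1 did not pass, with differences of 0.18 and -0.16.

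SMAD7, SKIL and PMEPA1 are on more than 1 of the lists. Of 24 TGF-β/SMAD target genes 23 were analysed here, and 1 was called higher (SMAD7) and 1 lower (ID1) in replicates 1 and 2, with a median of 0.17. By the adjusted p alone 4 were higher and 4 lower. ID1, an inhibitor of differentiation factors that BMP signals induce, was at 10.68, 10.93 and 10.58 in UT, at 12.48, 12.29 and 10.39 in SCR, and at 11.75, 10.68 and 10.10 in SID, and fell by 1.17 ± 0.30 in replicates 1 and 2 (SE, limma adjusted p = 0.0270). PMEPA1, a negative feedback gene of TGF-β, differed by -0.93 ± 0.18 (SE, limma adjusted p = 0.00783), and JUNB, an AP-1 subunit, by 0.88 ± 0.14 (SE, limma adjusted p = 0.00361), both under the fold limit. Relative to the mean of the 5 arrays, SCR and SID replicates 1 and 2 differed by 1.43 and 0.50 for PMEPA1. For JUNB they differed by -1.14 and -0.26. TGFBI and CCN2, a pair of matrix proteins, differed by 0.27 and -0.23 and did not pass.

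Of 15 other TALE homeobox genes 12 were analysed here, and 1 was called lower in replicates 1 and 2, with a median of -0.04. MEIS2, named after its values were seen, was at 8.88 and 8.79 in SCR and at 7.63 and 7.22 in SID, and fell by 1.41 ± 0.16 (SE, limma adjusted p = 0.00113). MEIS1 was at 6.50 and 6.57 in SCR and at 5.89 and 6.08 in SID, a difference of -0.55 ± 0.16 (SE, limma adjusted p = 0.0384). On the 5 arrays both lay higher, MEIS2 at 9.93 to 10.54 and MEIS1 at 8.24 to 8.70. PKNOX1, whose homeodomain is of the same class, differed by -0.23 and did not pass.

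**Figure D5:**
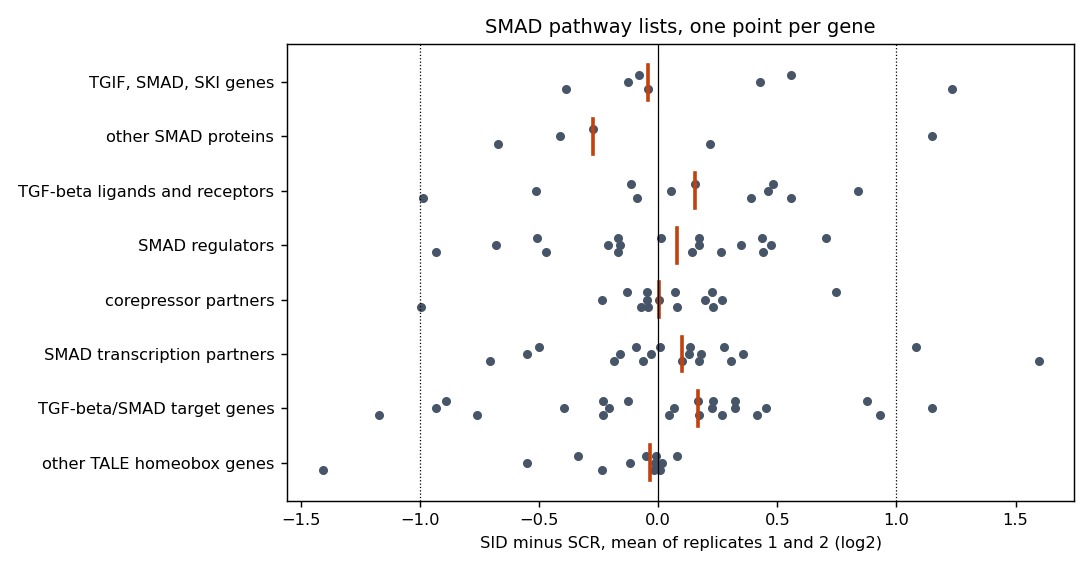
SID minus SCR in log2, mean of replicates 1 and 2 (horizontal axis), for each measured gene of 8 lists (vertical axis), 1 point per gene, with the list median as a vertical bar and dotted lines at 1 and -1. The medians lie between -0.27 and 0.17, and points past the lines are TGIF1, SMAD7, RUNX2, ATF3, ID1 and MEIS2.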

How the data were processed

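RNA of 9 samples of a breast cancer cell line was measured on 1 array each. The authors deposited log2 signals per transcript cluster, and the labels name Affymetrix Expression Console, RMA and Transcriptome Analysis Console with no version. The scale is not stated and was read as log2 from the values (3.75 to 14.94). Of 33297 probes, the 19460 with 1 gene symbol were tested, and 1754 with several and 12083 with none were left out. The test was limma 3.58.1 (lmFit, eBayes; R 4.3.3) between group means, and p was adjusted over all tested probes after Benjamini and Hochberg. Replicates 1 and 2 and replicate 3 were compared in a model with 5 means (UT, and SCR and SID of each set), which share an estimate of the spread that includes the UT arrays. The fold limit is that of the methods, whose ChipInspector analysis per single probe could not be run on these values. The limma fits were tested on simulated data with known changes. The number of arrays limits the precision.

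Members, lists and tests were chosen with earlier results of these data known. The genes named are the 7 and, by role, pathway genes of the lists. Replicate numbers of SCR and SID deviated together (r = 0.774, 0.575 and 0.791 across probes for numbers 1, 2 and 3), so blocks on them were tried, but numbers 1 and 2 crossed gave 0.604 and 0.748. UT did not pair with the peptides. Alternatives were blocks, array weights, normalizations, filters, tests, the mean of a gene's probes and leaving out each array. Promoter windows were matched by symbol for 6 of the 7 genes (18 windows, RefSeq, GRCh38.p14). Some genes of the lists are not reported here. Figures were drawn with matplotlib 3.10.9.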

Additional observations from a re-analysis of the deposited data

Results flagged for a closer look

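The SID minus SCR difference of TGIF1 was 1.18 log2 larger in replicates 1 and 2 (1.16 and 1.30) than in replicate 3 (0.05), and this difference between the sets of arrays passed limma's test over all probes (adjusted p = 0.00757) and the fold limit, as 4.87% of all probes did. Replicate 3 has 1 array of each peptide.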

How the results depend on the processing

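Over all arrays the count of probes called between SID and SCR, 0, became 859 with replicates 1 and 2 alone and 761 with array weights, and ran from 0 to 648 when 1 array was left out (223 without SCR replicate 3, 648 without SID replicate 3). Against UT, array weights gave 2389 calls for SID and 2116 for SCR, the array set as a block gave 1 for SID, and leaving out 1 array gave 0 to 1946 for SID (1946 without SID replicate 3) and 0 to 1071 for SCR (1071 without SCR replicate 3). TGIF1 was called between SID and SCR with replicates 1 and 2 alone (1.23, adjusted p = 0.0160), with array weights (1.14, adjusted p = 0.00198) and without SID replicate 3 (1.08, adjusted p = 0.00939, limma), over 0.69 to 1.08 when 1 array was left out. Over all its alternatives the adjusted p ran from 0.00198 to 1. In replicates 1 and 2 TGIF1 was called under all 16 alternatives, at 1.16 to 1.28, and its leave-one-out range was 1.18 to 1.28. Not all of these could move it. Leaving out a UT array cannot change this estimate, and leaving out replicate 3 of SCR or SID leaves the fit for it unchanged. The alternatives used the probe that stands for TGIF1 or the mean of its probes. Probe 8019939 by itself was not called in replicates 1 and 2 (0.86). The count of calls there ran from 759 to 1439 when 1 array was left out, and that of the difference between the sets from 550 (without UT replicate 3) to 1545 (without SID replicate 1), with 600 without SCR replicate 2.

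Signs turned only for differences that did not pass. SMAD3 was 0.060 with array weights and 0.018 with median centring, and ran from -0.47 to 0.41 with 1 array left out (-0.19 to 0.099 in replicates 1 and 2). SKI was 0.086 with array weights and ran from -0.18 to 0.058 (-0.28 to 0.12 in replicates 1 and 2), SKIL from -0.30 to 0.15, SMAD4 from -1.24 to 2.19 and SMAD2 from -0.0059 to 0.71. With the array set as a block, TGIF2 minus UT was 0.0065 in SID, SMAD3 -0.19 in SID and -0.17 in SCR, and SMAD4 -0.36 in SCR. The difference between the sets turned to 0.015 for SMAD3 under quantile normalization and to -0.0073 for SKI under median centring, with ranges of -0.20 to 0.081 and -0.18 to 0.22 when 1 array was left out. With the replicate number as a block, limma called 0 probes between SID and SCR on the 6 peptide arrays and on all 9, and TGIF1 was 0.84 with an adjusted p of 0.526 and 0.597. The block changed no call of the 7 genes in replicates 1 and 2, where TGIF1 had an adjusted p of 0.00590. The causes were not tested. With no detection calls, signal over background is unknown for low values such as SMAD4 on the 5 arrays.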
